A study of Mus musculus with 8 samples.

Results

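The genes described here encode the enzymes, carriers and cofactor proteins that break down the branched-chain amino acids leucine, isoleucine and valine, the propionate to which some of them lead, and lysine, ornithine, proline and GABA. They were chosen by name as 32 genes, all of which were found among the 24341 genes of the deposited expression table. RNA was sequenced from lysates of mouse heart ventricle in 8 libraries, 4 labelled Pos Cre and 4 labelled Neg Cre. All 8 came from male mice of 12 weeks that carried floxed Med13/13L alleles (Med13/13L fl/fl) and were fed chow with tamoxifen, 4 weeks after tamoxifen. Pos Cre mice also carried a Cre recombinase, which the series title describes as acting in cardiomyocytes, whereas Neg Cre mice had the floxed alleles and the tamoxifen without Cre. The driver of the Cre is not named in the labels. No library came from mice with Cre but without floxed alleles, so effects of Cre itself and of the loss of Med13 and Med13l cannot be told apart. The question is which transcripts of the ventricle change when its cardiomyocytes lose both of these subunits of the Mediator coactivator complex.

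In the branched-chain pathway a transaminase first removes the amino group, and the branched-chain keto acid dehydrogenase complex in mitochondria then commits the carbon skeleton to breakdown. That complex is switched off by a kinase that phosphorylates it and switched on by a phosphatase. Leucine ends in acetyl-CoA and acetoacetate, valine in propionyl-CoA and isoleucine in both acetyl-CoA and propionyl-CoA, and the propionyl-CoA enters the citric acid cycle as succinyl-CoA through a biotin enzyme and a cobalamin enzyme. The heart is known as a tissue that oxidises branched-chain keto acids, and lower expression of this pathway is a known feature of failing hearts.

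The unit is FPKM, a count of sequenced fragments divided by transcript length and by library depth, so levels may be compared between genes. Sequencing depth was estimated at 4270000 to 22400000 fragments per library from the value that a single fragment takes. A level of the ribosomal precursor Rn45s above or below 100 FPKM parted the libraries into 5 with 396 to 1053 FPKM (Neg Cre 1, 3 and 4, Pos Cre 1 and 2) and 3 with 10.3 to 16.0 FPKM (Neg Cre 2, Pos Cre 3 and 4). The 3 low-Rn45s libraries were also the deepest, at 14800000 fragments or more. Med13 was at 12.0 ± 2.23 FPKM in Neg Cre and 8.13 ± 0.554 FPKM in Pos Cre, and Med13l at 4.92 ± 0.814 and 2.52 ± 0.113 FPKM (SD, n = 4 per group), with no overlap between the groups for either gene. The fall of Med13 (log2 change -0.50, limma adjusted p = 0.00612) was not called after scaling to a fixed sum, described below, nor within the high-Rn45s or the low-Rn45s libraries alone (limma adjusted p = 0.171, 0.0529 and 0.0532). Med13l (log2 change -0.74, limma adjusted p = 3.17e-04) was called lower in all of these. Levels of whole transcripts do not measure the deleted exons. Cardiomyocyte markers were abundant in all libraries. Of 9 such markers 8 fell and 0 rose, or 8 and 1 (Actc1) after scaling to a fixed sum. Their log2 changes on the deposited scale were uneven, from -2.95 (Ryr2) to 0.02 (Actc1, not called). The summed level of the 9 went from 70175 to 74716 FPKM in Neg Cre to 30471 to 31467 FPKM in Pos Cre. In such bulk lysates fewer cells of a type and less RNA per cell cannot be told apart, and the part of the cardiomyocyte markers in the falls below was not tested.

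Most of the amino acid breakdown genes were lower in Pos Cre ventricles. Of the 28 with a mean of at least 1 FPKM, which were tested, 22 fell and 2 rose, at a limma adjusted p under 0.05. Over all 11685 genes tested, 19.4% fell and 19.7% rose, 39.2% in all. The median log2 change of the 28 was -0.69, against -0.01 for all genes tested. The 22 falls ran from 1.23-fold (Acadsb) to 2.70-fold (Mccc2), with 4 genes at 2-fold or more, 12 between 1.5-fold and 2-fold and 6 under 1.5-fold. The genes that rose were Abat and Slc25a44, and those not called were Bcat2, Bckdk, Mccc1 and Acad8. In 20 of the 28 every Pos Cre library lay below every Neg Cre library, which held for 18.7% of all genes tested, and in 1 (Abat) every Pos Cre library lay above, against 19.3%. Scaling each library to a fixed FPKM sum raised the median of all genes by 0.26, so directions are relative to the deposited scale. Under that scaling 15 of the 28 fell and 3 rose, against 8.8% and 45.8% of all genes, and the median of the 28 was -0.40 while all genes had a median of 0.26. After quantile normalization 20 of the 28 fell and 2 rose, against 2266 and 2330 of all 11685 genes. Scaling by the median of gene ratios gave 22 and 2, against 2293 and 2298. With the Rn45s batch as a term of the fit 24 of the 28 fell, against 21.3% of all genes, and 2 rose.

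**Figure D1:**
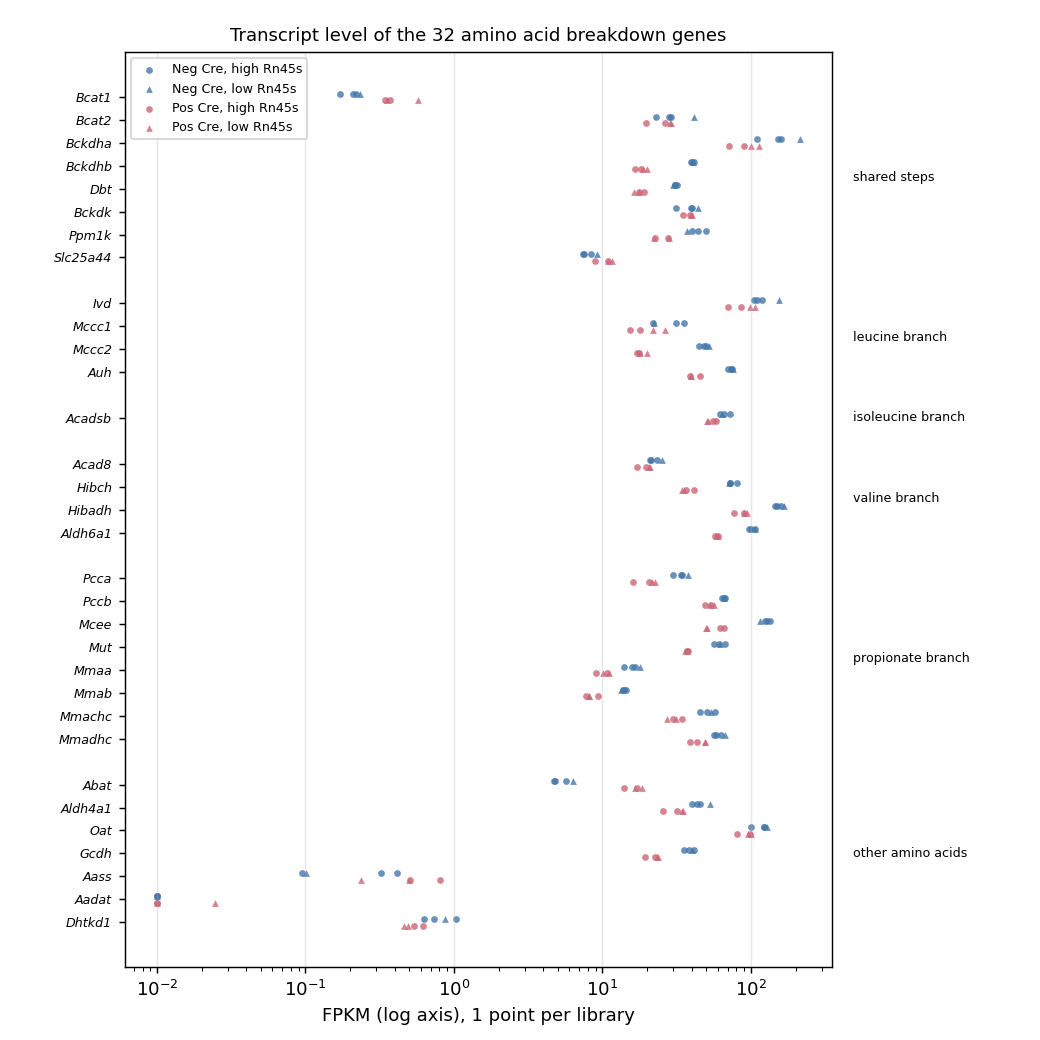
FPKM on a log axis for each of the 32 genes, grouped by step of the pathway, with 1 point per library. Blue points are Neg Cre, red points Pos Cre, circles libraries with high Rn45s and triangles libraries with low Rn45s. For most genes red lies to the left of blue, Abat and Bcat1 have red to the right, and Bcat1, Aass, Aadat and Dhtkd1 lie near or below 1 FPKM.

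Among the steps shared by leucine, isoleucine and valine 4 of 7 tested genes fell, 1 rose and 2 were not called, or 3 and 2 after scaling to a fixed sum. The 3 subunits found only in the branched-chain dehydrogenase complex all fell, although Bckdha was not called after that scaling. Bckdhb, its decarboxylase beta subunit, stood at 39.3, 40.8, 41.3 and 39.9 FPKM in Neg Cre libraries 1 to 4 and at 16.6, 18.1, 18.8 and 19.9 FPKM in Pos Cre libraries 1 to 4. Each group was tight and the 2 did not overlap, a 2.2-fold fall (log2 change -1.10, SE 0.07, limma adjusted p = 3.03e-06). Dbt, the transacylase core that carries lipoate, stood at 31.7, 29.8, 30.9 and 30.7 FPKM in Neg Cre and at 17.6, 19.2, 16.4 and 17.6 FPKM in Pos Cre libraries. It too was lower in every Pos Cre library (log2 change -0.77, SE 0.07, limma adjusted p = 1.87e-05). Bckdha, the decarboxylase alpha subunit and the target of the kinase, was the most abundant and the most variable, at 159, 214, 109 and 154 FPKM in Neg Cre and at 71.8, 89.7, 99.7 and 113 FPKM in Pos Cre libraries. Its groups overlapped, since Neg Cre 3 lay below Pos Cre 4, and its log2 change was -0.74 (SE 0.19, limma adjusted p = 0.0118). The 3 low-Rn45s libraries were the highest of their groups for Bckdha. Within the high-Rn45s libraries its log2 change was -0.78 and within the low-Rn45s libraries -1.01. Bckdha was not called after scaling to a fixed sum (log2 change -0.43, limma adjusted p = 0.0595) or when no filter on low genes was applied (limma adjusted p = 0.0792).

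The phosphatase of the complex fell, and its kinase was not called. Ppm1k (chromosome 6, 57506502 to 57535426, mm10), the mitochondrial phosphatase that activates the complex, stood at 44.4, 37.3, 50.3 and 40.3 FPKM in Neg Cre and at 22.8, 27.8, 22.1 and 28.3 FPKM in Pos Cre libraries. All 4 Pos Cre libraries were lower than any Neg Cre library (log2 change -0.75, SE 0.11, limma adjusted p = 5.32e-04). Bckdk (chromosome 7, 127904073 to 127909664, mm10), the kinase that inactivates the complex, stood at 40.3, 44.2, 31.2 and 39.7 FPKM in Neg Cre and at 34.8, 39.0, 39.8 and 40.0 FPKM in Pos Cre libraries. The kinase values of the groups were interleaved, with a log2 change of -0.01 and a 95% interval from -0.24 to 0.23 (limma adjusted p = 0.967). After scaling to a fixed sum Bckdk was called higher (log2 change 0.29, limma adjusted p = 0.0203). The ratio of Ppm1k to Bckdk within a library does not move with such scaling. It was 1.10, 0.843, 1.61 and 1.02 in Neg Cre and 0.655, 0.712, 0.557 and 0.707 in Pos Cre libraries, so that all Pos Cre ratios were lower than all Neg Cre ratios. The mean difference of the log2 ratio, with 1 added to each FPKM, was -0.74, with an exact two-sided permutation p of 0.0286, the smallest that 4 against 4 libraries allow, and 0.0571 after adjustment over the 6 ratios compared. Neg Cre 3, which had the highest Ppm1k and the lowest Bckdk of its group, bore on the size of this difference, which was -0.56 without it. Ratios of Bckdhb to Bckdha (0.269 ± 0.0786 and 0.199 ± 0.0234) and of Dbt to Bckdha (0.205 ± 0.0586 and 0.195 ± 0.0418, SD, n = 4 per group) overlapped between the groups, with exact permutation p of 0.143 and 0.914 (adjusted 0.171 and 0.914).

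On the deposited scale, the fit of all 8 libraries without a batch term called neither transaminase of the pathway lower, nor its carrier. Bcat2, the mitochondrial branched-chain aminotransferase of muscle, stood at 29.1, 41.7, 23.0 and 28.3 FPKM in Neg Cre and at 19.5, 26.3, 28.4 and 29.0 FPKM in Pos Cre libraries. The groups overlapped widely and Bcat2 was not called (log2 change -0.22, 95% interval -0.60 to 0.17, limma adjusted p = 0.361). It was called lower with the Rn45s batch as a term (log2 change -0.33, limma adjusted p = 0.0486). Among the low-Rn45s libraries alone its log2 change was -0.52. The only Neg Cre library there was Neg Cre 2, the highest of all for Bcat2. Bcat1, the cytosolic aminotransferase, known from brain and dividing cells, was listed at 0.209, 0.232, 0.172 and 0.219 FPKM in Neg Cre and at 0.371, 0.344, 0.355 and 0.577 FPKM in Pos Cre libraries. It lay below the level required for testing, but every Pos Cre value was above every Neg Cre value, at an estimated 7.24 to 96.6 fragments per library. When no filter was applied Bcat1 was called higher (log2 change 0.22, limma adjusted p = 0.0351), in a fit that called 19 of the 32 genes lower. The ratio of Bcat1 to Bcat2 in FPKM was 0.00699 ± 0.000976 in Neg Cre and 0.0161 ± 0.00388 in Pos Cre (SD, n = 4 per group), without overlap. The test added 1 to each FPKM, which is more than the level of Bcat1, and on that scale the groups overlapped (log2 difference 0.44, exact permutation p = 0.0571, adjusted 0.0857). With 0.1 added the difference was 0.94 (adjusted exact permutation p = 0.0429). Slc25a44, the mitochondrial carrier of branched-chain amino acids, stood at 7.45, 9.17, 7.50 and 8.39 FPKM in Neg Cre and at 8.91, 10.9, 11.7 and 10.9 FPKM in Pos Cre libraries. Only Pos Cre 1 fell within the Neg Cre range, and the gene rose by a log2 change of 0.34 (SE 0.10, limma adjusted p = 0.0205). This call was lost without Neg Cre 1, Pos Cre 2, Pos Cre 3 or Pos Cre 4, in turn, with log2 changes over the 8 omissions from 0.30 to 0.42 and limma adjusted p up to 0.0690. Slc25a44 was also not called among the high-Rn45s or the low-Rn45s libraries alone (log2 changes 0.31 and 0.27, limma adjusted p = 0.123 and 0.0888) or without a filter (limma adjusted p = 0.0567).

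**Figure D2:**
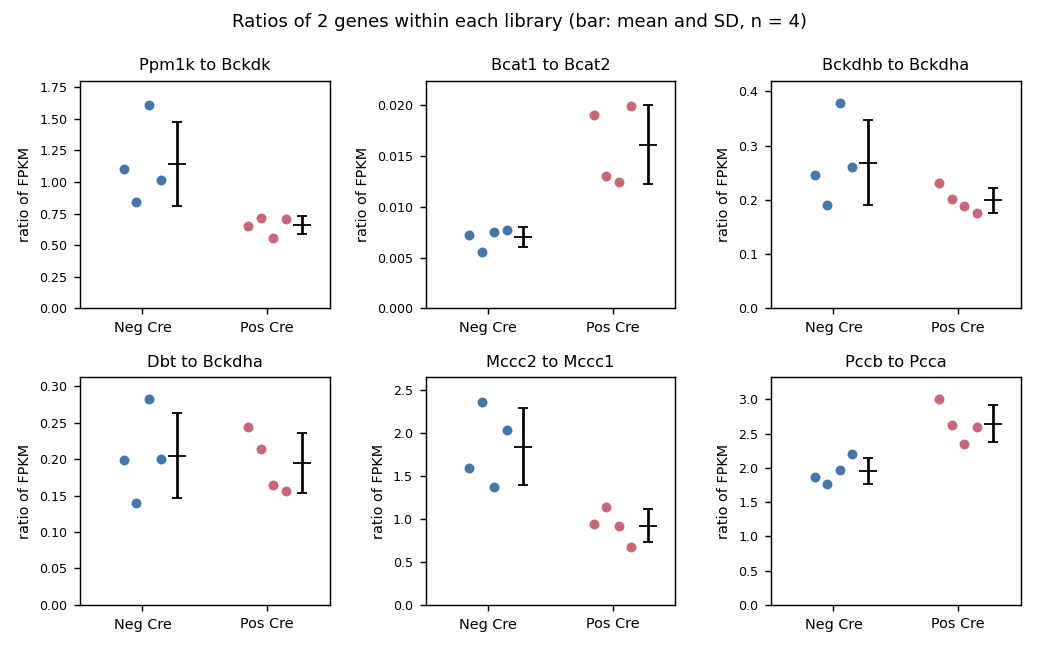
Ratio of the FPKM of 2 genes within each library for 6 pairs, with 1 point per library and a bar for the mean and SD of 4 libraries. Pos Cre points lie below all Neg Cre points for Ppm1k to Bckdk and for Mccc2 to Mccc1 and above them for Pccb to Pcca and Bcat1 to Bcat2, while both ratios to Bckdha overlap.

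In the leucine branch 3 of 4 genes fell, and Mccc2 had the largest fall of the 28 tested breakdown genes on the deposited scale. Mccc2 (chromosome 13, 99948532 to 100015639, mm10), the beta subunit of methylcrotonyl-CoA carboxylase, stood at 49.98, 52.7, 48.4 and 45.0 FPKM in Neg Cre and at 17.0, 17.6, 20.1 and 17.8 FPKM in Pos Cre libraries. The highest Pos Cre library was far below the lowest Neg Cre library (log2 change -1.39, SE 0.08, limma adjusted p = 1.3e-06). Mccc1, the alpha subunit that carries the biotin of the same enzyme, stood at 31.3, 22.3, 35.3 and 22.1 FPKM in Neg Cre and at 18.0, 15.4, 21.8 and 26.6 FPKM in Pos Cre libraries. These groups overlapped and Mccc1 was not called (log2 change -0.42, 95% interval -0.84 to -0.00, limma adjusted p = 0.103). Its direction depended on the libraries, with a log2 change of -0.77 among the high-Rn45s libraries, where it was called (limma adjusted p = 0.0290), and 0.11 among the low-Rn45s libraries. Mccc1 was also called lower without Pos Cre 4 (limma adjusted p = 0.0453). The ratio of Mccc2 to Mccc1 was 1.60, 2.37, 1.37 and 2.04 in Neg Cre and 0.946, 1.14, 0.920 and 0.671 in Pos Cre libraries, without overlap (log2 difference -0.97, exact two-sided permutation p = 0.0286, adjusted 0.0571). Auh, the hydratase of the following step, was lower in every Pos Cre library, at 38.8 to 45.4 FPKM against 69.8 to 75.3 FPKM (log2 change -0.84, SE 0.07, limma adjusted p = 1.39e-05).

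Ivd, the dehydrogenase of isovaleryl-CoA, stood at 118, 154, 105 and 111 FPKM in Neg Cre and at 70.4, 86.4, 98.8 and 107 FPKM in Pos Cre libraries. Pos Cre 4 reached into the Neg Cre range, and the fall was small (log2 change -0.42, SE 0.15, limma adjusted p = 0.0452). The call was lost when any library but Neg Cre 3 or Pos Cre 4 was left out (limma adjusted p up to 0.108) and once libraries were scaled to a fixed sum (log2 change -0.12, limma adjusted p = 0.496), and also after quantile normalization, without a filter, without a variance trend and with the sample number as a block (limma adjusted p = 0.113, 0.173, 0.0531 and 0.0694). With the Rn45s batch as a term it was firmer (log2 change -0.53, SE 0.08, limma adjusted p = 7.47e-04). In 10 of the 28 tested genes, Bckdha, Ivd, Bcat2 and Mccc2 among them, every low-Rn45s library was above every high-Rn45s library of its group, which held for 13.3% of all genes tested. The part of the Rn45s batch in the spread of these genes was not tested.

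**Figure D3:**
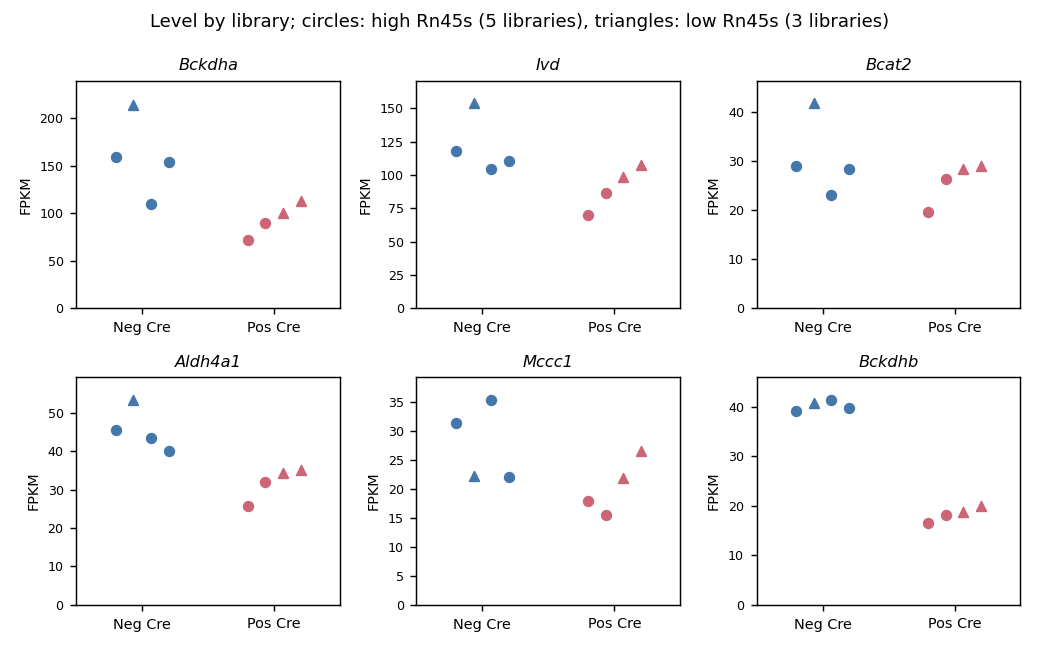
FPKM by library for 6 genes, Neg Cre in blue and Pos Cre in red, with circles for the 5 high-Rn45s and triangles for the 3 low-Rn45s libraries. Triangles are highest within each group for Bckdha, Ivd, Bcat2 and Aldh4a1, Mccc1 mixes the groups, and Bckdhb is even within each group and lower in all Pos Cre libraries.

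Of the 5 genes tested in the isoleucine and valine branches 4 fell, or 3 after scaling to a fixed sum. Acadsb, which oxidises the acyl-CoA of isoleucine, stood at 66.1 ± 4.47 FPKM in Neg Cre and 53.9 ± 3.63 FPKM in Pos Cre (SD, n = 4 per group), without overlap (log2 change -0.29, SE 0.08, limma adjusted p = 0.0142). After scaling to a fixed sum its log2 change was 0.0141 and it was not called, nor was it among the high-Rn45s libraries alone (-0.23, limma adjusted p = 0.128). Acad8, which does the same for valine, stood at 22.7 ± 1.90 and 19.6 ± 1.75 FPKM (SD, n = 4 per group) and was not called (log2 change -0.20, 95% interval -0.40 to -0.00, limma adjusted p = 0.105). With the Rn45s batch as a term Acad8 was called lower (log2 change -0.24, limma adjusted p = 0.0226), and under scaling to a fixed sum its value was 0.0949. The remaining 3 valine genes fell. Hibch, the hydrolase that frees hydroxyisobutyrate, stood at 81.0, 71.0, 72.1 and 72.7 FPKM in Neg Cre and at 36.6, 41.2, 35.6 and 34.6 FPKM in Pos Cre libraries, a fall of 2.01-fold with no overlap (log2 change -0.99, SE 0.08, limma adjusted p = 7.76e-06). Hibadh, the dehydrogenase that follows, was the most abundant gene of the branch and went from 156 ± 9.52 to 87.7 ± 7.17 FPKM (log2 change -0.83). Aldh6a1, which makes propionyl-CoA, went from 103 ± 4.54 to 59.0 ± 1.54 FPKM (log2 change -0.79), and its Pos Cre libraries lay within 57.3 to 60.5 FPKM.

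All 8 genes of the propionate branch fell without overlap between the groups, at a median log2 change of -0.69, although after scaling to a fixed sum Mmadhc (-0.13) and Pccb (0.0045) were not called. Mcee, the epimerase of methylmalonyl-CoA, stood at 125, 115, 128 and 134 FPKM in Neg Cre and at 62.3, 66.3, 50.8 and 49.8 FPKM in Pos Cre libraries. It was the most abundant gene of the branch in Neg Cre and fell most in it (2.2-fold, log2 change -1.13, SE 0.10, limma adjusted p = 1.87e-05). Mut, the cobalamin-dependent mutase that makes succinyl-CoA, stood at 66.9, 62.3, 56.8 and 61.3 FPKM in Neg Cre and at 38.0, 36.9, 36.2 and 37.0 FPKM in Pos Cre libraries (log2 change -0.72, SE 0.07, limma adjusted p = 2.72e-05). The Pos Cre libraries hardly differed among themselves for Mut. Both subunits of propionyl-CoA carboxylase fell, although Pccb was not called after scaling to a fixed sum or among the low-Rn45s libraries alone. Pcca, the biotin-carrying alpha subunit, went from 33.8 ± 3.20 to 20.3 ± 2.86 FPKM (log2 change -0.71), and Pccb, the beta subunit, from 65.6 ± 1.07 to 53.2 ± 3.19 FPKM (log2 change -0.30). The ratio of Pccb to Pcca was 1.87, 1.76, 1.98 and 2.21 in Neg Cre and 3.01, 2.63, 2.35 and 2.60 in Pos Cre libraries, higher in each Pos Cre library (log2 difference 0.41, exact two-sided permutation p = 0.0286, adjusted 0.0571). The proteins that trim and load cobalamin also fell. Mmachc, which strips the ligand from incoming cobalamin, went from 51.9 ± 5.20 to 30.8 ± 2.93 FPKM, Mmadhc, which routes it to mitochondria or cytosol, from 61.0 ± 4.63 to 45.0 ± 5.11 FPKM, Mmab, which makes adenosylcobalamin, from 13.8 ± 0.430 to 8.35 ± 0.648 FPKM, and Mmaa, which helps to load it onto the mutase, from 16.1 ± 1.71 to 10.2 ± 0.902 FPKM, as mean ± SD of 4 libraries. In the same order their log2 changes were -0.74, -0.43, -0.67 and -0.60.

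**Figure D4:**
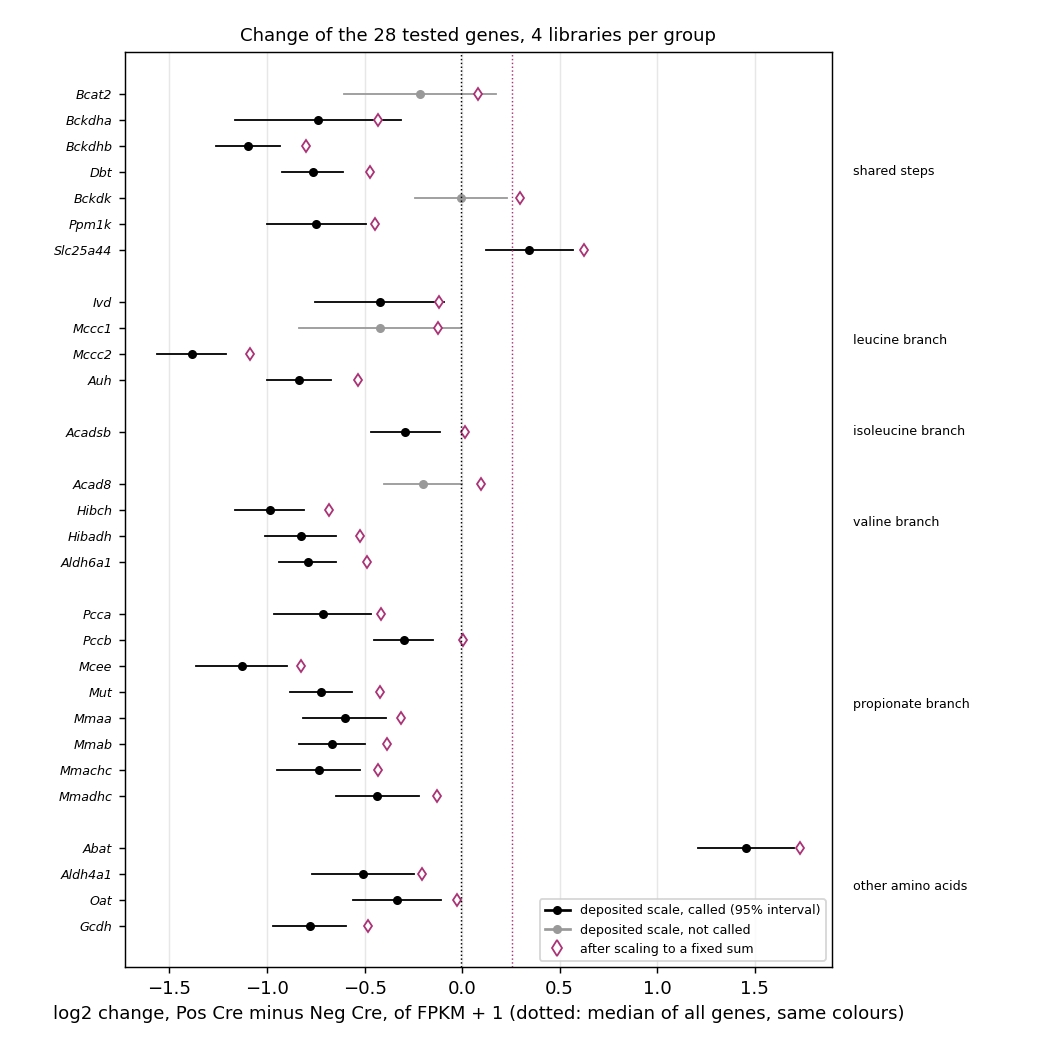
Log2 change of FPKM + 1, Pos Cre minus Neg Cre, for the 28 tested genes by step of the pathway. Circles with 95% intervals are on the deposited scale (black called, grey not called), diamonds are values after scaling to a fixed sum, and dotted lines mark the median of all genes on each scale. On the deposited scale Mccc2, Mcee and Bckdhb lie farthest left and Abat farthest right, and the diamonds of Bcat2, Bckdk, Acadsb, Acad8 and Pccb lie right of 0.

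Among genes for other amino acids 3 of 4 tested fell and 1 rose. Abat, the transaminase that starts the breakdown of GABA and beta-alanine, stood at 4.71, 6.31, 5.67 and 4.83 FPKM in Neg Cre and at 13.9, 17.1, 18.4 and 16.5 FPKM in Pos Cre libraries. Every Pos Cre library was above every Neg Cre library, a 3.06-fold rise (log2 change 1.46, SE 0.11, limma adjusted p = 5.55e-06). Abat was called in each of the 20 other settings, with log2 changes from 1.33 to 1.73. Gcdh, the glutaryl-CoA dehydrogenase of lysine and tryptophan breakdown, went from 39.0 ± 2.55 to 22.3 ± 1.88 FPKM, without overlap (log2 change -0.78, SE 0.08, limma adjusted p = 5e-05). Aldh4a1, which turns the product of proline into glutamate, went from 45.6 ± 5.72 to 31.8 ± 4.25 FPKM (log2 change -0.51, limma adjusted p = 0.00616), but was not called under scaling to a fixed sum (-0.21, limma adjusted p = 0.129). Oat, the ornithine aminotransferase, stood at 122, 129, 99.6 and 123 FPKM in Neg Cre and at 80.8, 98.2, 99.9 and 96.2 FPKM in Pos Cre libraries. Its groups touched at Neg Cre 3, and its call (log2 change -0.33, limma adjusted p = 0.0251) was lost without Neg Cre 1, 2 or 4 or Pos Cre 1, in turn (limma adjusted p up to 0.0678), among the high-Rn45s libraries alone, after quantile normalization, without a filter, with the sample number as a block (limma adjusted p = 0.0943, 0.0816, 0.0809 and 0.0540) and when each library was scaled to a fixed sum (log2 change -0.0263).

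Among genes of lysine breakdown Aass, Dhtkd1 and Aadat were near or below 1 FPKM in these ventricles, while Aldh7a1, which is not among the 32 and acts between Aass and Aadat, was at 14.5 to 16.0 FPKM. Aass, the enzyme that opens the saccharopine route, was at 0.414, 0.1002, 0.325 and 0.0944 FPKM in Neg Cre and at 0.801, 0.505, 0.497 and 0.238 FPKM in Pos Cre libraries, with overlap. Dhtkd1, a dehydrogenase subunit that acts on oxoadipate, was at 0.631, 0.876, 0.730 and 1.04 FPKM in Neg Cre and at 0.540, 0.623, 0.487 and 0.464 FPKM in Pos Cre libraries, without overlap. Aadat, the aminoadipate aminotransferase, was listed at 0.01 FPKM in all libraries but Pos Cre 4, at 0.0245 FPKM. That is under the level of 3 fragments, which a count of 0 allows and which was 0.0680 to 0.357 FPKM for this transcript by library, so Aadat was not detectable at this depth. Fitted without a filter, Aass (limma adjusted p = 0.261) and Dhtkd1 (limma adjusted p = 0.0734) were not called.

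The sequences just upstream of 4 of these genes are shown because their transcripts marked the contrasts above: Mccc2 and Bckdhb fell most among the enzymes of the shared and leucine steps, and Ppm1k fell while Bckdk was not called. They are from RefSeq for GRCm38.p6 (mm10), read 5′ to 3′ on the strand of the gene up to the base before its start, and that of Bckdhb is shorter because an annotated exon of Gm36278 lies farther out. Capitals mark CCAAT or its complement ATTGG, the core of the CCAAT box bound by the factor NF-Y. Mccc2 is chr13:100015640-100015889 on the minus strand, Bckdhb chr9:83925023-83925136 on the plus strand, Ppm1k chr6:57535488-57535737 on the minus strand and Bckdk chr7:127903823-127904072 on the plus strand.
Mccc2: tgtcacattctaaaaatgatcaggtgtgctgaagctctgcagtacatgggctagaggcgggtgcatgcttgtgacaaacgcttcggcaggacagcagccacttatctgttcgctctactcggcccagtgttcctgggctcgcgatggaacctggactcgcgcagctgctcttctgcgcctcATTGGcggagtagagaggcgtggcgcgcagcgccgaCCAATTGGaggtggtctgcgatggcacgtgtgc
Bckdhb: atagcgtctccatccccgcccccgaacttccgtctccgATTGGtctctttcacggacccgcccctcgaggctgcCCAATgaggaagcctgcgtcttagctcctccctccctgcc
Ppm1k: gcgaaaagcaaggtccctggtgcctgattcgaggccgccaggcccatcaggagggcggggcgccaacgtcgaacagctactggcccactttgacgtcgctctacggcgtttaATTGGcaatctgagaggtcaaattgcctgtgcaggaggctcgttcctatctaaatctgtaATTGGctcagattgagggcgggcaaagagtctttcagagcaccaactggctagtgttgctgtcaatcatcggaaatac
Bckdk: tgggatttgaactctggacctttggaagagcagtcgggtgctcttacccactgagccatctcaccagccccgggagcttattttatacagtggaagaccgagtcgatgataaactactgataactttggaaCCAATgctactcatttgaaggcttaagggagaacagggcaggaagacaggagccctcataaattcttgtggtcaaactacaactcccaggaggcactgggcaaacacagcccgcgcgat
The motif was present in all 4, of which 1 (Bckdk) was not called, and also upstream of Mccc1, which was not called either. In Mccc2 a copy on each strand overlaps at the last capitals.

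RefSeq windows, from 250 bases before to 50 bases after a gene start, were at hand for 27 of the 32 genes, in 33 windows. Mut, Mmadhc, Dbt and the risen genes Abat and Slc25a44 had no window. On either strand CCAAT was found in 22 of the 33 windows (66.7%) and in 37.4% of the 32851 windows of all genes. The 19 genes with it included Bckdk, Mccc1 and Acad8, not called, and Bcat1, Aass, Aadat and Dhtkd1, not tested. The motif AAGGTCA, known for estrogen-related and other nuclear receptors, was found in 0 of the 33 against 4.72% of all windows. CCGGAAG, an ETS motif, was in 1 of the 33 (Auh) against 8.86%, and CCACCC, a KLF motif, in 12 of the 33 (36.4%) against 31.5%. CGCATGCG, the core of the NRF1 motif, was in 1 of the 33 (Pccb) against 1.87%, and the CRE motif TGACGTCA in 0 of the 33 against 1.79%. No motif holds another. These are counts of letters in short windows, and the 33 windows had a median GC content of 56.3% against 52.7% for all.

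Mitochondrial genes next to these steps were counted from lists, on the deposited scale. There 19.4% of all genes tested fell and 19.7% rose, or 8.8% and 45.8% after scaling to a fixed sum. Of 10 genes for late steps shared with fatty acid and ketone breakdown 8 fell and 0 rose, or 7 and 0 after scaling to a fixed sum. Acaa2, Hadhb and Hadha, which act on acyl-CoA chains, had log2 changes of -1.98, -1.34 and -1.24. All 3 electron transfer flavoprotein genes, which serve Ivd, Acadsb, Acad8 and Gcdh, fell on either scale: Etfdh from 532 ± 44.8 to 198 ± 14.1 FPKM, Etfb from 559 ± 66.7 to 268 ± 40.9 FPKM and Etfa from 327 ± 16.7 to 158 ± 8.85 FPKM (SD, n = 4 per group). All 5 listed genes that make or use succinyl-CoA fell as well (4 after that scaling), with log2 changes of -1.04 for Sucla2, -0.85 for Suclg1 and -0.75 for Dlst. Among 6 genes for attachment of biotin and lipoate 4 fell and 1 rose, or 3 and 2. Lipt2 fell from 7.96 ± 0.539 to 3.45 ± 0.969 FPKM, and Lias, the lipoate synthase, from 32.9 ± 2.43 to 21.0 ± 0.878 FPKM. The biotin transporter Slc5a6 fell by 0.57 on the log2 scale.

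Lists for supply of amino acids and cobalamin held more rises. For comparison, 19.7% of all genes tested rose and 19.4% fell, or 45.8% and 8.8% after scaling to a fixed sum. Of 6 tested transporters of neutral amino acids at the cell surface 4 rose and 0 fell, or 6 and 0 after scaling to a fixed sum. Slc38a1 went from 3.90 ± 1.24 to 8.25 ± 0.238 FPKM, Slc7a5, the large neutral amino acid transporter that carries leucine, from 1.26 ± 0.392 to 2.83 ± 0.590 FPKM, and Slc38a2 from 62.1 ± 4.23 to 85.0 ± 6.65 FPKM (SD, n = 4 per group). Of 6 genes for delivery and cytosolic use of cobalamin 2 rose and 2 fell, or 3 and 1 after scaling, with Tcn2, the plasma carrier, at a log2 change of 0.92 and Mtr, the methionine synthase, at -0.81. Neighbours of glutamate, proline and ornithine had 5 falls and 2 rises among 10 tested, or 3 and 3 after scaling, with Gpt (-1.45), Prodh (-1.23) and Gpt2 (-0.77) changing most. Aldh5a1, which takes the product of Abat to succinate, fell from 9.43 ± 1.88 to 2.87 ± 0.220 FPKM (log2 change -1.42, limma adjusted p = 1.41e-05), opposite in sign to Abat. Carns1 was the other gene tested of 6 in the GABA and beta-alanine list, and was not called, at 6.55 to 8.71 FPKM over the 8 libraries. Of 6 regulators of oxidative gene transcription 5 fell and 0 rose, or 3 and 0 after scaling, with Ppargc1b, Ppara and Ppargc1a at -1.73, -1.11 and -0.76.

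Markers of other cell types moved beside these genes, counted on the deposited scale and then after scaling to a fixed sum. Shares of all genes tested were 19.7% rises and 19.4% falls, or 45.8% and 8.8%. Fibroblast markers (9 tested) had 6 rises and 1 fall, or 8 and 1, and their summed level was 662 to 790 FPKM in Neg Cre and 1010 to 1164 FPKM in Pos Cre libraries. Of 9 tested macrophage markers 6 fell and 0 rose, or 3 and 0, with sums of 275 to 345 and 170 to 245 FPKM. Of 8 smooth muscle and pericyte markers 4 rose and 1 fell, or 5 and 0, with sums of 467 to 610 and 937 to 1386 FPKM, and of 8 endothelial markers 1 rose and 3 fell, or 2 and 1, with sums of 392 to 449 and 325 to 383 FPKM. None of 6 adipocyte markers reached the level for testing. The adipocyte sums were 0.758 to 4.13 FPKM in Neg Cre and 0.117 to 2.17 FPKM in Pos Cre, with Lep listed at 0.01 FPKM throughout. The only lymphocyte marker tested of 7 (Cd79b) was not called, with list sums of 1.39 to 5.56 and 1.72 to 3.12 FPKM. The part of fibroblast and smooth muscle markers in the higher values of Abat, Bcat1 and Slc25a44 was not tested.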

How the data were processed

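The authors deposited a table of FPKM values, 1 per gene symbol and library, made with Bowtie2 2.2.6 and Cufflinks on mm10, per the submitters' processing notes. Libraries were stranded total RNA after removal of ribosomal RNA, per the labels' protocols. The sources used here do not give the annotation, strand use or filter. A lowest value of 0.01 is read as a placeholder for genes below estimation. Table starts were moved to count from 1. Depth was estimated from single-transcript genes of GENCODE M21, and limits from it cover counting error only.

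Groups were compared on log2(FPKM + 1), which understates changes of low genes, with limma 3.58.1 in R 4.3.3 (lmFit, eBayes with a trend) for 11685 genes whose mean reached 1 FPKM, and p-values were adjusted by Benjamini-Hochberg, with 0.05 as the threshold for a call. Left out were 3 genes with words in 6 cells. The fixed sum used as another scaling leaves out small RNA and ribosomal protein genes. The fit was tested on simulated data. Ratios of 2 genes, on log2 with 1 added to each FPKM, were compared by exact permutation tests. The 32 genes, all of which are named, the pathway and marker lists and the tests were chosen with earlier results of these data known. For other lists up to 3 called genes with the largest change, or the most abundant where fewer than 2 were called, are named, and not all are described; counts of the list of lysine and tryptophan neighbours are not reported here. Figures used matplotlib. Nothing in the labels says that libraries came from separate animals, so p-values measure the spread between these libraries. Alternatives were other pseudocounts, filters, scalings and variance models, the Rn45s batch, the sample number as a block and each library left out.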

Additional observations from a re-analysis of the deposited data

Results flagged for a closer look

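In 64 groups of 4 libraries (32 genes in each genotype), 3 had a highest library far from the other 3. Chance flags about 1 in 20 such groups where values vary freely. Aadat in Neg Cre, at 0.01 FPKM in all 4 libraries, could not be flagged. Bcat1 was at 0.577 FPKM in Pos Cre 4 and at 0.344 to 0.371 FPKM in the other Pos Cre libraries. Auh was at 45.4 FPKM in Pos Cre 2 and at 38.8 to 39.8 FPKM in the others. Aadat was at 0.0245 FPKM in Pos Cre 4, where the others were listed at 0.01 FPKM, a difference below the level of 3 fragments. With the others at that placeholder any higher value would have been flagged, so the rate does not apply to Aadat.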

How the results depend on the processing

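Of the 24 genes called, 16 were called in the same direction in each of the 20 other settings run, 15 of them lower, and Abat was the other. Scaling to a fixed sum moved most: 5353 of all genes rose under it and 1028 fell (83.9% and, on the deposited scale, 50.4% of calls were rises), and the calls of Acadsb, Aldh4a1, Bckdha, Ivd, Mmadhc, Oat and Pccb were lost while Bckdk was gained. Under it log2 changes turned positive for Bcat2 (0.0818), Bckdk (0.29), Acadsb (0.0141), Acad8 (0.0949) and Pccb (0.0045). Bckdk, at -0.01 on the deposited scale, was also positive after quantile normalization (0.0126), among the high-Rn45s libraries (0.0014) and with Neg Cre 1 and 2, whose library names share a number, averaged as 1 library (0.0353), an alternative chosen after seeing the data. It ran from -0.11 to 0.0576 when single libraries were left out. Mccc1 was positive among the low-Rn45s libraries (0.11). Those hold 1 Neg Cre library, whose spread is assumed to be like that of the Pos Cre libraries.

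Falls numbered 22 of 28, and 20 to 23 without single libraries. Rises numbered 2, and 1 among the high-Rn45s and 1 among the low-Rn45s libraries (Abat in each), and 1 to 2 without single libraries. The cause was not tested. With the sample number as a replicate block 20 genes fell and 2 rose, as Ivd and Oat were lost. Same-numbered libraries did not deviate together (correlations of deviations from -0.16 to -0.0776), and no label ties the numbers to a shared litter or day. Sample numbers are those of the sample titles, and some differ from the numbers in the library names. A pairing by library name was not tested. Neg Cre 1 and 2 were the most alike of the 6 Neg Cre pairs (SD of the log2 difference 0.355), with the other pairs at 0.356 to 0.462 and the closest Pos Cre pair at 0.277. With Neg Cre 1 and 2 averaged as 1 library 20 genes fell and 2 rose, as Ivd and Oat were lost. Without a filter on low genes 19 fell and 2 rose, as Bckdha, Ivd, Oat and Slc25a44 were lost and Bcat1 was gained.

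With 0.1 in place of 1 added to each FPKM, 4 ratios passed the threshold (adjusted exact permutation p = 0.0429 each): Ppm1k to Bckdk (-0.76), Mccc2 to Mccc1 (-0.99), Pccb to Pcca (0.44) and Bcat1 to Bcat2 (0.94 against 0.44). Among the low-Rn45s libraries, log2 differences were -0.41 for Ppm1k to Bckdk, 0.77 for Bcat1 to Bcat2, -0.0364 for Bckdhb to Bckdha and -1.54 for Mccc2 to Mccc1. Pairing by sample number left each difference as it was, and 4 pairs cannot give a p below 0.125. Depth limits Bcat1, Aass, Aadat and Dhtkd1.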

Other observations

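Other acyl-CoA dehydrogenases spanned a wide range of levels. Acadm, the medium-chain enzyme, fell from 820 ± 46.8 to 302 ± 13.9 FPKM, and Acadvl, the very long-chain enzyme, from 640 ± 66.5 to 286 ± 38.7 FPKM (SD, n = 4 per group). Of 7 other acyl-CoA dehydrogenases tested 6 fell and 0 rose at a limma adjusted p under 0.05, with a median log2 change of -0.76, while Ivd, Acadsb and Acad8 stood at -0.42, -0.29 and -0.20. After scaling to a fixed sum 4 of the 7 fell and 0 rose, with a median of -0.46, and Ivd, Acadsb and Acad8 stood at -0.12, 0.0141 and 0.0949. The difference between these sets was not tested.

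Of the 32 genes 15 overlap a gene on the opposite strand in GENCODE M21 and 5 (Aldh4a1, Aldh6a1, Bcat2, Gcdh and Mccc1) share a locus with another gene of the table. With no source for the use of strand in counting, reads of such genes cannot be told apart. Ggact overlaps Pcca on the opposite strand and was at 14.8 to 21.6 FPKM in Neg Cre and 21.2 to 29.2 FPKM in Pos Cre libraries, against a fall of Pcca. Cenpq overlaps Mut and was at 4.79 to 7.74 and 6.69 to 10.3 FPKM. Mccc1os, antisense to Mccc1, was at 0.537 to 0.856 and 0.189 to 0.625 FPKM.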
